A study of Mus musculus with 10 samples.

Results

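The mitochondrial ribosomal protein genes were taken as the gene symbols that start with Mrpl or Mrps followed by a number. This rule found 78 of 23553 genes in the series, 49 with an Mrpl symbol for the large subunit and 29 with an Mrps symbol for the small subunit. All 78 reached at least 1 RPKM (read density per transcript length, scaled to the size of the library) in each of the 8 RNA libraries. The cells were Neuro-2a, a mouse neuroblastoma line whose strain is labelled C57BL/6+C57BL/6J+CBA, in differentiated condition, grown for the transfection in a differentiation medium with 2% FCS. Controls received siRNA for Luciferase (Luc), which mouse cells lack, and the knockdown cells received siRNA for mSfpq (Sfpq), both with RNAiMAX. Sfpq encodes a nuclear protein that binds RNA and DNA, and the series title links it to transcriptional elongation of long neuronal genes. Selection for poly(A) gave 6 RNA libraries, 3 per siRNA, and removal of ribosomal RNA (rRNA-depleted) gave another 2, 1 per siRNA. The RNA polymerase II immunoprecipitation samples were not analysed here.

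Mitochondria carry their own ribosome, which makes the handful of respiratory chain proteins encoded in mitochondrial DNA. Its ribosomal RNA is made inside the organelle, whereas every protein of its large and small subunits is encoded by a nuclear gene, translated in the cytosol and imported. Some of these proteins descend from bacterial ribosomal proteins and others were added in the mitochondrial lineage, and neurons depend strongly on the respiration that this ribosome sustains.

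Promoters of these genes are known for binding sites of NRF-1, of ETS factors such as GABP, and of YY1. Of the 78 genes, 69 matched a RefSeq promoter window (GRCm38.p6, 250 bases before to 50 after the start site), with 75 windows in all. The motifs searched on both strands were GCATGCGC for NRF-1, CCGGAAG for ETS factors and ATGGCGG for YY1. The NRF-1 motif was present in 10.7% of the windows of these genes, against 2.71% of all 32851 windows and 5.43% of the windows of genes tested below. The ETS motif was present in 34.7%, against 8.86% and 18.3%, and the YY1 motif in 17.3%, against 4.05% and 8.35%. The motifs were counted separately, whether or not their matches overlapped, and a match describes letters only. The bases before the start site are printed for the pair of genes with the largest changes, Mrps6 and Mrps9, whose windows held none of the motifs, and for 3 genes whose windows held some. Capitals mark the NRF-1 and ETS matches, read on either strand (a match on the other strand appears as its reverse complement). The windows are chr16:92058086-92058335 (plus strand) for Mrps6, chr1:42850983-42851232 (plus) for Mrps9, chr13:99344536-99344785 (plus) for Mrps27, chr11:58171414-58171663 (plus) for Mrpl22 and chr7:105811088-105811337 (minus) for Mrpl17.
Mrps6: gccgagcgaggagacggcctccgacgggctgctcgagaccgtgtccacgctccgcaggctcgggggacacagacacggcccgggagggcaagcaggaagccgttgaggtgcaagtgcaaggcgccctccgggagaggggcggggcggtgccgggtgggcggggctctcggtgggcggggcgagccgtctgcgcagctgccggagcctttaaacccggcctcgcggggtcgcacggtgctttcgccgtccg
Mrps9: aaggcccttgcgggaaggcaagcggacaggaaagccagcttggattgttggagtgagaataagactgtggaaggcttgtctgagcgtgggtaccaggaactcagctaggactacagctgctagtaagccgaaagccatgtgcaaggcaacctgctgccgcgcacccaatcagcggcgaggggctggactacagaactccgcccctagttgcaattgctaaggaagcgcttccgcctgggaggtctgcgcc
Mrps27: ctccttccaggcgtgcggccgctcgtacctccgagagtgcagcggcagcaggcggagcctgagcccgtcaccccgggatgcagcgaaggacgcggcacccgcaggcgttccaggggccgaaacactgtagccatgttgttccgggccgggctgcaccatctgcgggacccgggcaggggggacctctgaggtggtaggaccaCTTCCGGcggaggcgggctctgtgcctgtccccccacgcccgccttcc
Mrpl22: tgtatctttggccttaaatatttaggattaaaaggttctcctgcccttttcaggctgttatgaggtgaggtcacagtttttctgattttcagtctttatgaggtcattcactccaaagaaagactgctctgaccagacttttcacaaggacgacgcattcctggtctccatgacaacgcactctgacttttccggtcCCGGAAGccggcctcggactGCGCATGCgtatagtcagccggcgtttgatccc
Mrpl17: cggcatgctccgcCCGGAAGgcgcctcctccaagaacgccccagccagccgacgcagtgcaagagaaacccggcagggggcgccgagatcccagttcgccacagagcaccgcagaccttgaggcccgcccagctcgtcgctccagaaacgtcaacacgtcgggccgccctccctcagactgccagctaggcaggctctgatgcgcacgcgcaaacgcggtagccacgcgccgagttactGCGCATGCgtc
Mrps27 carries an ETS match and Mrpl22 and Mrpl17 carry both an ETS and an NRF-1 match in the bases shown. The windows of Mrps27 and Mrpl22 also held the YY1 motif, in the bases after the start site that are not shown.

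The targeted gene was checked first, through its transcript with the highest mean, which is a noncoding RefSeq record. No value of a coding Sfpq transcript is given here. Sfpq measured 56.8, 60.8 and 73.0 RPKM in the Luc poly(A) libraries and 3.98, 4.75 and 6.47 RPKM in the Sfpq libraries, or 7.97% of the Luc mean, and 30.8 and 4.43 RPKM in the rRNA-depleted Luc and Sfpq libraries. The deposited values hold no read counts, and relative depth was read from the steps between low values: against Luc replicate 1, the poly(A) libraries ranged from 0.628 (Sfpq replicate 1) to 1.27 times (Luc replicate 3). Luc replicate 3 stood apart, at correlations across genes of 0.985 and 0.979 with Luc replicates 1 and 2, whose own correlation was 0.996. Of 10 neuroblastoma markers, 9 or 10 reached 1 RPKM in every poly(A) library, whereas 0 of 5 fibroblast, 0 of 3 leukocyte and 0 of 4 glial markers did so in any. Summed neuroblastoma markers were 990, 1104 and 955 RPKM in Luc and 857, 923 and 917 RPKM in Sfpq, with no overlap, and 6 of the 10 were lower (such as Isl1 at -1.13, log2 fold change) and 3 higher by the test below. Summed endothelial markers were 1.64 to 2.01 RPKM in Luc and 0.949 to 1.48 RPKM in Sfpq poly(A) libraries, with Kdr at 0. Of 4 endothelial markers, 1 reached 1 RPKM in each Luc poly(A) library and 0 in the Sfpq ones. Pecam1 had means of 1.43 RPKM in Luc and 0.694 RPKM in Sfpq. It was lower by the test below (log2 fold change -0.69, limma adjusted p = 0.00242). The part of either marker list in any result was not tested. The labels do not say whether replicates were separate cultures, and p-values therefore reflect only the variation among these libraries, which may be technical. In these bulk samples fewer cells and less RNA per cell cannot be told apart.

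After Sfpq siRNA, 12 of the 78 genes were lower and 2 were higher in poly(A) RNA, while 64 did not pass the test. Mrps6 and Mrps9, both proteins of the small subunit, fell to about 34.3% and 33.8% of their Luc means, and the other 10 lower genes fell by 0.32 to 0.67 on the log2 scale. Mrpl48 and Mrpl54 of the large subunit rose. The test was limma on log2(RPKM + 0.5), with p-values adjusted over all 11727 genes tested and a call at an adjusted p under 0.05. Fold changes are on that scale. Across all genes tested, 18.6% were lower and 21.3% were higher, against 15.4% and 2.56% of these genes, so the share that fell was near the background with all libraries. The median log2 fold change was -0.09 for these genes and 0.05 for all genes tested, and 64.1% of these genes against 45.1% of all genes lay below 0. The counts moved with single libraries. Without Luc replicate 3 they were 24 lower (30.8%, against 22.5% of all genes in that fit) and 6 higher (7.69% against 30.9%). Without Sfpq replicate 2 they were 6 lower (7.69% against 14.3%) and 1 higher, and without Sfpq replicate 3 they were 7 lower (8.97% against 14.3%) and 1 higher. The share that fell was thus above the background in the first of these fits and below it in the others. Without Luc replicate 1 they were 8 lower (10.3% against 14.8%) and 1 higher. Without Luc replicate 2 the counts were 14 lower (17.9% against 18.1%) and 1 higher. The share that fell was near the background in that fit. Without Sfpq replicate 1 the counts were 9 lower (11.5% against 14.9%) and 3 higher.

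**Figure D1:**
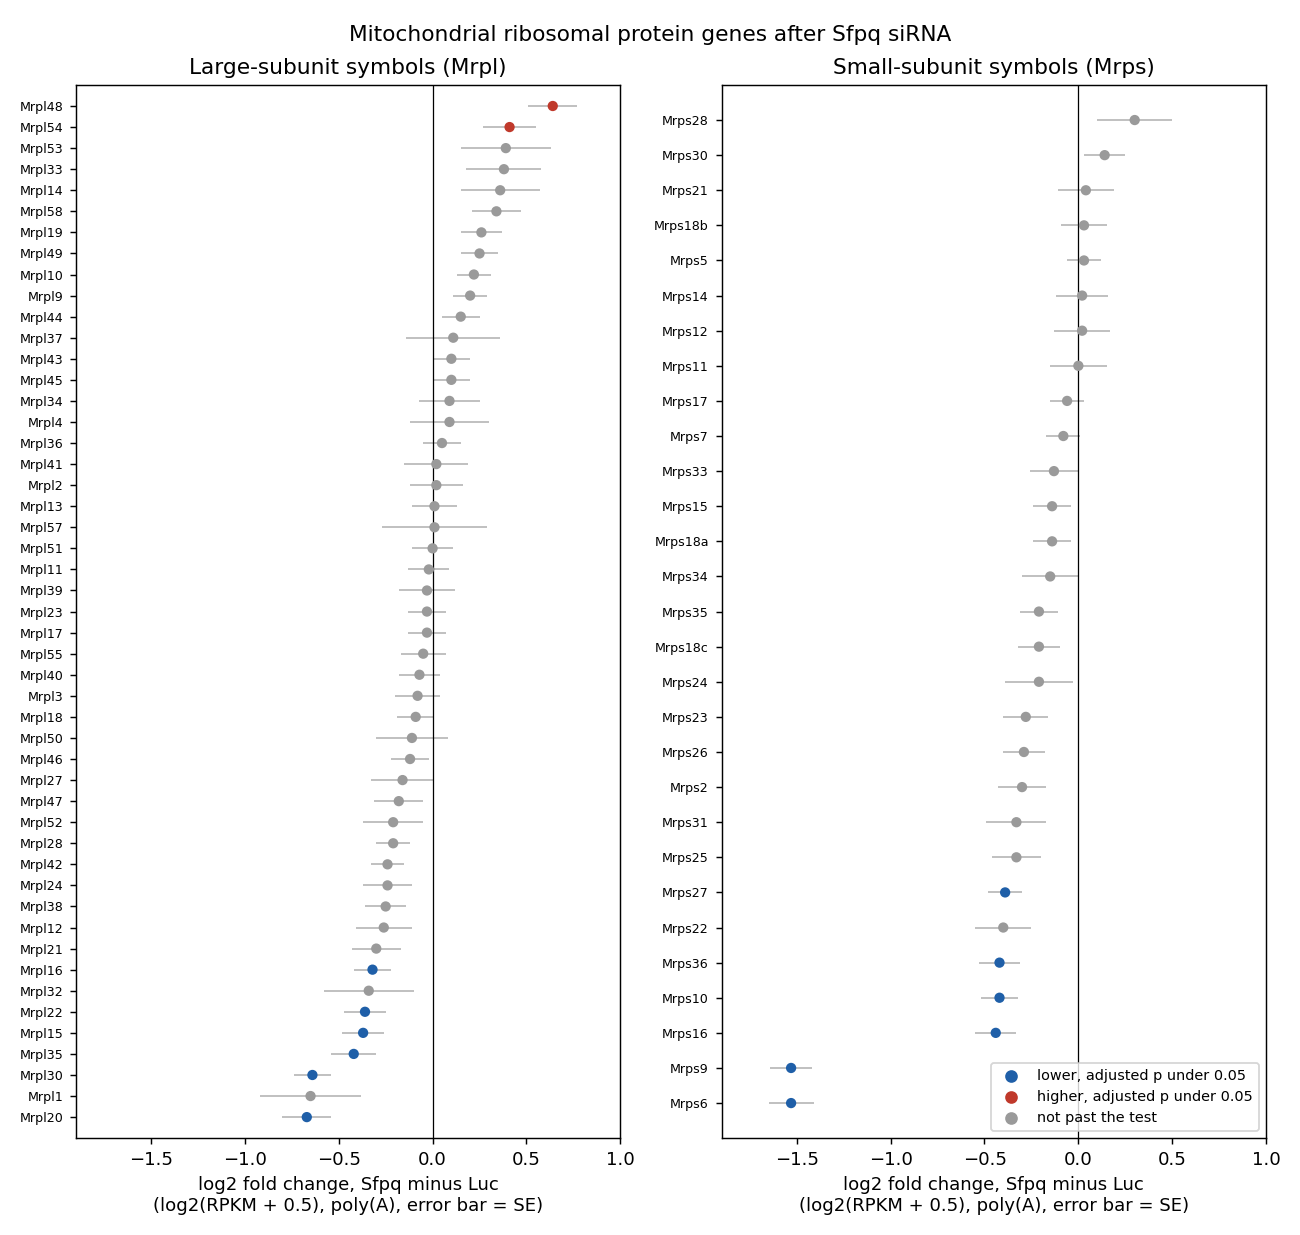
Log2 fold change (Sfpq minus Luc, poly(A) RNA, log2(RPKM + 0.5) scale) of each mitochondrial ribosomal protein gene, large-subunit symbols on the left and small-subunit symbols on the right, with bars of 1 standard error. Mrps6 and Mrps9 lie at -1.53, apart from the other genes, which run from -0.67 to 0.64.

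Mrps6 and Mrps9 are counterparts of small-subunit proteins that bacteria also have. Mrps6 measured 106, 102 and 91.4 RPKM in the Luc poly(A) libraries and 39.6, 31.1 and 32.1 RPKM in the Sfpq libraries. Every Sfpq library lay far below every Luc library. The log2 fold change was -1.53 (SE 0.12, n = 3 and 3 libraries, limma adjusted p = 1.90e-05). In rRNA-depleted RNA, Mrps6 was 59.4 RPKM in Luc and 19.3 RPKM in Sfpq, a log2 ratio of -1.60. Mrps9 measured 38.6, 38.9 and 43.6 RPKM in Luc and 13, 12.9 and 15.0 RPKM in Sfpq poly(A) libraries. The groups were again widely apart, with a log2 fold change of -1.53 (SE 0.11, n = 3 and 3, limma adjusted p = 9.84e-06). The rRNA-depleted pair gave 26.9 and 9.76 RPKM for Mrps9, a log2 ratio of -1.42. In the gene table, Mrps6 overlaps Slc5a3, a myo-inositol transporter gene. Slc5a3 was low, at means of 1.17 RPKM in Luc and 1.22 RPKM in Sfpq, and its log2 fold change was 0.03 (limma adjusted p = 0.869).

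The other 4 Mrps genes that fell changed less. Mrps10, a bacterial-type protein of the small-subunit head, measured 94.0, 85.8 and 95.8 RPKM in Luc and 72.4, 66.3 and 67.4 RPKM in Sfpq. The groups did not overlap, and the log2 fold change was -0.42 (SE 0.10, limma adjusted p = 0.00758). Mrps27, a pentatricopeptide repeat protein that bacteria lack, measured 36.8, 36.3 and 37.9 RPKM in Luc and 28.3, 27.7 and 28.3 RPKM in Sfpq. Its libraries lay close together within each group, and it fell by 0.39 (SE 0.09, limma adjusted p = 0.00743). Mrps16, another bacterial-type protein, measured 39.5, 38.5 and 31.9 RPKM in Luc and 28.3, 25.5 and 26.4 RPKM in Sfpq. It fell by 0.44 (SE 0.11, limma adjusted p = 0.0120) without overlap. The Mrps16 call was lost when Sfpq replicate 2, Sfpq replicate 3 or Luc replicate 1 was left out (limma adjusted p from 0.0529 to 0.0614).

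Mrps36 carries a ribosomal symbol, although its protein is now known as a component of the 2-oxoglutarate dehydrogenase complex of the citric acid cycle. It measured 143, 140 and 175 RPKM in Luc and 112, 114 and 114 RPKM in Sfpq. The Luc libraries were all higher, with replicate 3 highest, and the log2 fold change was -0.42 (SE 0.11, limma adjusted p = 0.0145). That call was lost without Sfpq replicate 2 or Sfpq replicate 3 (limma adjusted p from 0.0542 to 0.0566) and without the filter on low values (0.0562). In rRNA-depleted RNA Mrps36 was 22.6 RPKM in Luc and 12.6 RPKM in Sfpq, a log2 ratio of -0.82. It has 3 named pseudogene copies among the 6 pseudogenes of these genes in the gene table. How reads shared between copies were counted is not given in the sources used here, so its level is uncertain.

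In the large subunit, Mrpl20 and Mrpl30 fell most. Mrpl20, whose bacterial counterpart binds ribosomal RNA early in assembly, measured 160, 160 and 198 RPKM in Luc and 123, 107 and 95.4 RPKM in Sfpq. All Sfpq libraries were lower, and the log2 fold change was -0.67 (SE 0.13, limma adjusted p = 0.00331). Mrpl30, also of bacterial type, measured 194, 170 and 192 RPKM in Luc and 115, 118 and 123 RPKM in Sfpq. Its groups were separated by more than their spread, with a log2 fold change of -0.64 (SE 0.10, limma adjusted p = 0.000892). The rRNA-depleted log2 ratios were -0.69 for Mrpl20 and -0.56 for Mrpl30.

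Mrpl35, Mrpl15, Mrpl22 and Mrpl16, all of bacterial type, fell by smaller amounts. Mrpl35 measured 16.9, 15.1 and 19.8 RPKM in Luc and 12.9, 12 and 13.4 RPKM in Sfpq, a fall of 0.42 (SE 0.12, limma adjusted p = 0.0219). Mrpl22, which lines the tunnel through which the new chain leaves, measured 46.1, 42.1 and 51.8 RPKM in Luc and 35.3, 33.4 and 39.8 RPKM in Sfpq, a fall of 0.36 (SE 0.11, limma adjusted p = 0.0317). Their groups did not overlap, but the margins were narrow. Mrpl15 measured 19.1, 18.2 and 22.2 RPKM in Luc and 15.8, 14.8 and 14.9 RPKM in Sfpq, a fall of 0.37 (SE 0.11, limma adjusted p = 0.0223). Mrpl16, near the peptidyl transferase centre, measured 32.4, 27.1 and 31.4 RPKM in Luc and 25.2, 23.7 and 23.7 RPKM in Sfpq, a fall of 0.32 (SE 0.10, limma adjusted p = 0.0374). These 4 calls depended on single libraries and on the filter. Mrpl35 and Mrpl16 were lost without Luc replicate 1 or any of the Sfpq replicates (limma adjusted p from 0.0552 to 0.0978 and from 0.0599 to 0.154). Mrpl15 was lost when Sfpq replicate 2, Sfpq replicate 3 or Luc replicate 1 was left out (from 0.0582 to 0.0919), and Mrpl22 when Sfpq replicate 1, Sfpq replicate 2 or Luc replicate 1 was (from 0.0848 to 0.138). Without the filter on low values all 4 were lost (limma adjusted p = 0.0782 for Mrpl35, 0.0965 for Mrpl22, 0.0506 for Mrpl15 and 0.0644 for Mrpl16). With the mean of its transcripts Mrpl15 had a log2 fold change of -0.27 (limma adjusted p = 0.147).

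Mrpl48 and Mrpl54 rose, and both are proteins that the mitochondrial ribosome added to the bacterial set. Mrpl48, in the central protuberance of the large subunit, measured 46.5, 37.8 and 33.3 RPKM in Luc and 62.5, 56.9 and 63.6 RPKM in Sfpq. All Sfpq libraries lay above all Luc libraries, and the log2 fold change was 0.64 (SE 0.13, limma adjusted p = 0.00407). The rRNA-depleted pair was 11.5 and 14.5 RPKM. Mrpl48 also has a named pseudogene and overlaps Rab6a, a Golgi transport GTPase gene that moved the other way, at a log2 fold change of -0.50 (limma adjusted p = 0.0343). Mrpl54, assigned to the stalk region where translation factors bind, measured 43.7, 45.9 and 42.5 RPKM in Luc and 47.2, 68.8 and 62.5 RPKM in Sfpq. Sfpq replicate 1 was only just above the Luc libraries. The log2 fold change was 0.41 (SE 0.14, limma adjusted p = 0.0403), and the call was lost without Luc replicate 1, Luc replicate 2, Sfpq replicate 2 or Sfpq replicate 3 (limma adjusted p from 0.0530 to 0.169) and without the filter on low values (0.174). In rRNA-depleted RNA Mrpl54 went from 32 to 49.2 RPKM, a log2 ratio of 0.62.

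**Figure D2:**
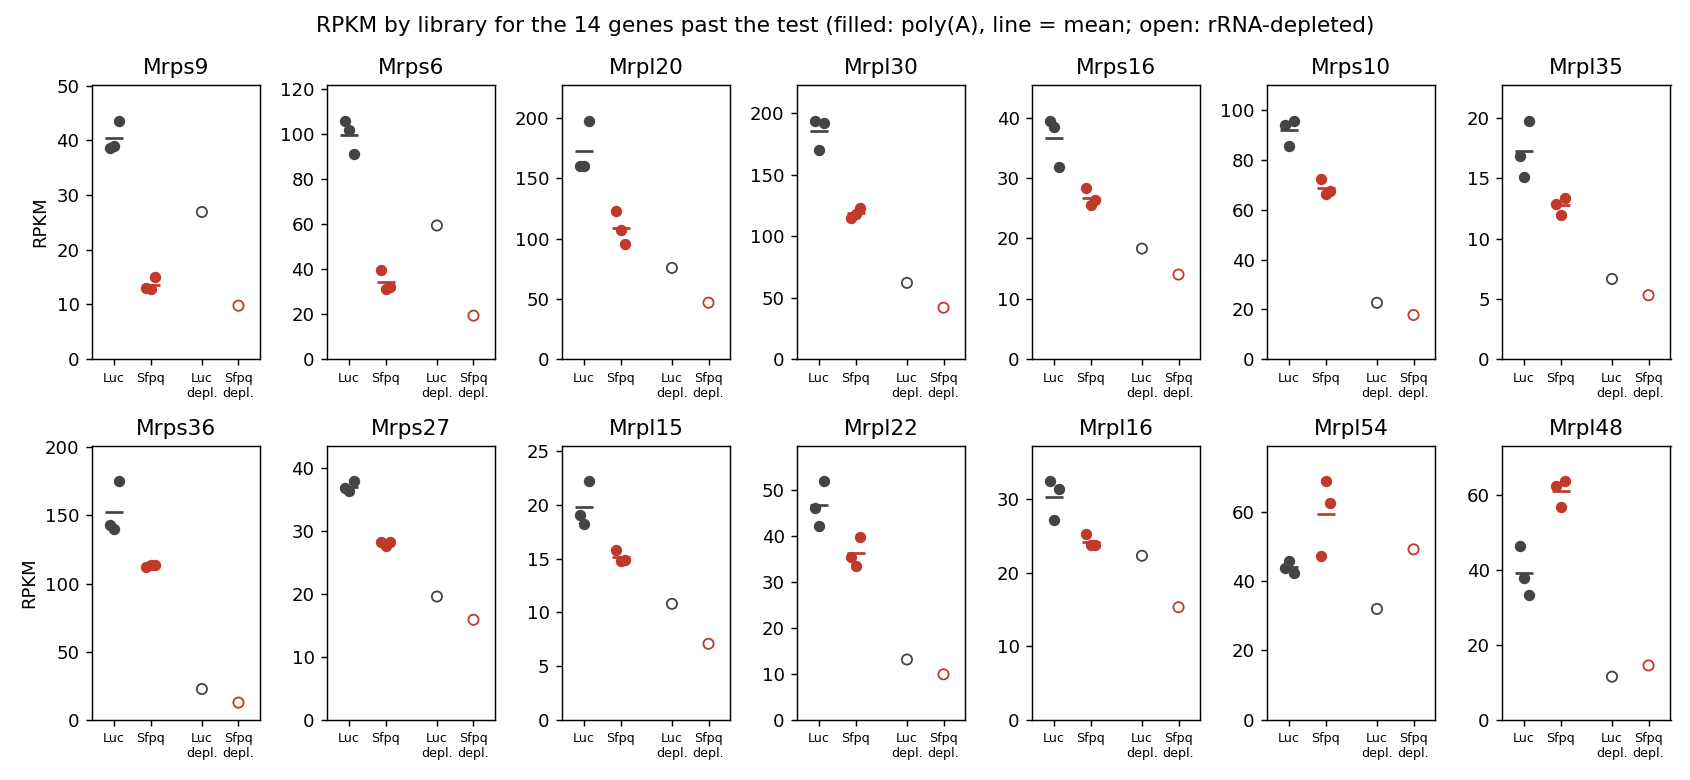
RPKM in each library (vertical axis, linear from 0) of the 14 genes past the test. Filled points are poly(A) libraries with a line at the group mean, and open points are the single rRNA-depleted libraries. In each of the 14 panels the 3 Sfpq poly(A) points lie on 1 side of the 3 Luc points, and the open points differ in the same direction.

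The calls that stayed under all 15 alternatives tried were those of Mrps6, Mrps9, Mrps10, Mrps27, Mrpl20, Mrpl30 and Mrpl48. The 64 genes past no threshold ranged in log2 fold change from -0.65 (Mrpl1) to 0.39 (Mrpl53). The size of the Mrpl1 change depended on Luc replicate 3. Mrpl1 measured 35.7 RPKM there, against 15.5 and 16.4 RPKM in the other Luc libraries and 12.1, 14.7 and 12.7 RPKM in Sfpq. Without Luc replicate 3 its log2 fold change was smaller, at -0.27, and passed (limma adjusted p = 0.0387, between 0.0343 and 0.366 over its alternatives). Mrpl1 also passed without Luc replicate 1 (-0.86), without Luc replicate 2 (-0.82) and with a replicate block (-0.65). Luc replicate 3 was the highest of the 6 poly(A) libraries by at least 1.5-fold for Mrpl1, Mrpl32 and Mrps31 and the lowest by that factor for Mrpl14, Mrpl53 and Mrps28. Sfpq replicate 1 was the highest by that factor for Mrpl33, at 411 RPKM against 242 and 238 RPKM in the other Sfpq libraries and 242, 211 and 211 RPKM in Luc.

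By subunit, the median change of the Mrps genes was lower than that of the Mrpl genes, which is a description. Of 29 Mrps genes, 6 were lower (20.7%, against 18.6% of all genes tested), 0 were higher (against 21.3%) and 23 did not pass. Their median log2 fold change was -0.21. Counts, medians and sums for the small subunit follow the symbols throughout. They include Mrps36, which was among the 6 lower genes, and none was repeated without it. By limma, 0 Mrps genes were higher at an unadjusted p under 0.05 as well. Of 49 Mrpl genes, 6 were lower (12.2%), 2 were higher (4.08%) and 41 did not pass, with a median of -0.03. The gap of 0.18 between the medians was 0.08 without Luc replicate 1, 0.11 without Sfpq replicate 3 and 0.09 with quantile normalization. Single libraries also moved the count of lower Mrpl genes, which was 13 when Luc replicate 3 was left out, 2 when Sfpq replicate 2 was left out, and 3 when any of Sfpq replicate 1, Sfpq replicate 3 and Luc replicate 1 was left out. The count of lower Mrps genes was 11 without Luc replicate 3 and 4 without either Sfpq replicate 2 or 3. The share of all genes that was lower moved as well, to 22.5% without Luc replicate 3. It was 14.3% without Sfpq replicate 2 or 3, 14.9% without Sfpq replicate 1 and 14.8% without Luc replicate 1. All 3 Sfpq libraries lay below all 3 Luc libraries for 13 of 29 Mrps genes (44.8%) and 12 of 49 Mrpl genes (24.5%), against 24.7% of all genes tested. They lay above for 0 Mrps genes and 8 Mrpl genes (16.3%), against 28.2% of all genes tested. The 8 were Mrpl9, Mrpl10, Mrpl19, Mrpl44, Mrpl48, Mrpl49, Mrpl54 and Mrpl58, the last a peptidyl-tRNA hydrolase built into the large subunit. Mrps18a and Mrps30 belong to the large subunit in the mammalian structure, and moving them there left the medians at -0.03 and -0.21.

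Levels summed per library showed the same ordering. The summed RPKM of the small subunit was 1633, 1613 and 1561 in Luc and 1462, 1353 and 1328 in Sfpq poly(A) libraries. The Sfpq sums were all lower, and without Mrps6 and Mrps9 they were 1409, 1309 and 1281 against 1488, 1471 and 1426. The summed RPKM of the large subunit was 2777, 2744 and 2643 in Luc and 2810, 2535 and 2525 in Sfpq, and these overlapped, since Sfpq replicate 1 held the highest sum. The median log2(RPKM + 0.5) of the large subunit minus that of the small subunit was -0.24, -0.29 and -0.28 in Luc and -0.29, -0.05 and -0.03 in Sfpq. Sfpq replicate 1 therefore stood with the Luc libraries, and the difference between subunits was not tested. Sfpq replicate 1 was also the shallowest poly(A) library. Relative to the median of all genes tested, the median of the 78 genes was 2.17, 2.16 and 1.95 log2 units higher in Luc and 2.18, 1.83 and 1.80 in Sfpq, and these groups overlapped.

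**Figure D3:**
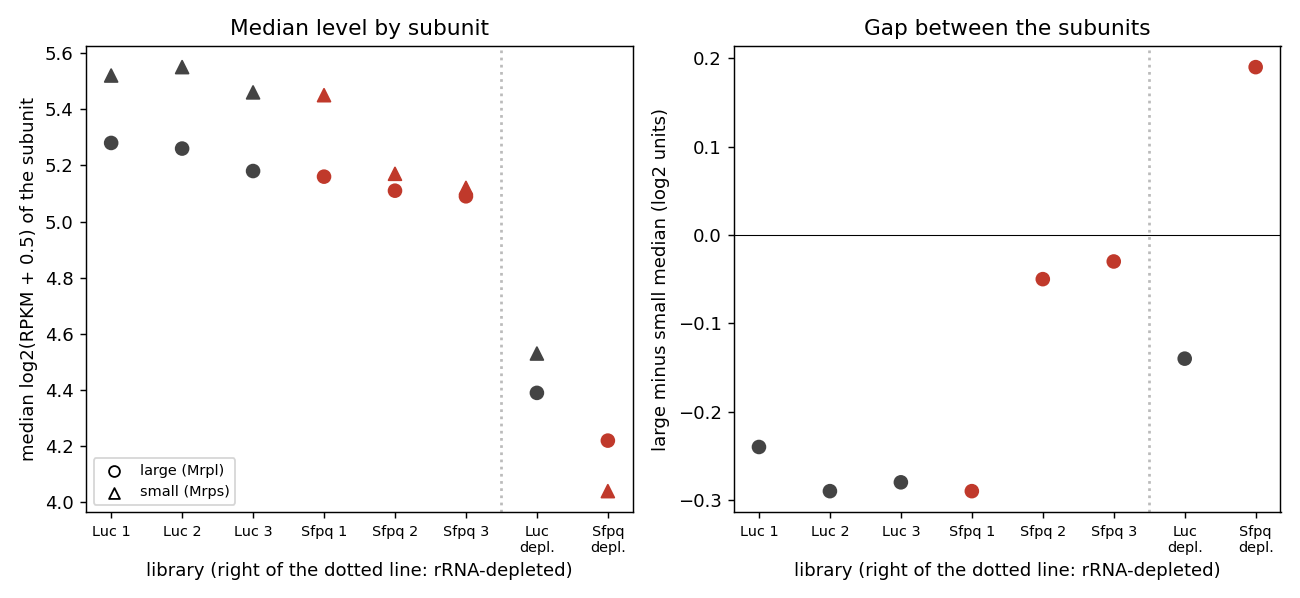
Left, median log2(RPKM + 0.5) of large-subunit (circles) and small-subunit (triangles) genes in each library, Luc in grey and Sfpq in red, and right, the large minus the small median. In poly(A) RNA the gap is -0.29 to -0.24 in Luc, and among Sfpq libraries replicate 1 lies at -0.29 and the other libraries at -0.05 and -0.03.

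By origin, 6 of the 30 bacterial-type genes of the large subunit were lower (20%, against 18.6% of all genes tested) and 0 higher, with a median log2 fold change of -0.08. Of its 19 other genes 0 were lower and 2 higher (10.5%, against 21.3%), with a median of 0.02. Of 16 bacterial-type genes of the small subunit 4 were lower (25%, median -0.11), and of its 13 other genes 2 were lower (15.4%, median -0.28). The numbers are small, and no difference by origin was tested. Among 5 genes of the stalk and its base only Mrpl54 passed, and Mrpl12, the stalk protein in most copies, measured 159, 172 and 124 RPKM in Luc and 149, 115 and 115 RPKM in Sfpq. Those Mrpl12 values overlapped (log2 fold change -0.26, limma adjusted p = 0.198). Of 7 genes of the central protuberance only Mrpl48 passed, and of 9 genes around the exit of the peptide tunnel only Mrpl22. The 3 paralogs of the bacterial S18 protein did not pass, at log2 fold changes of -0.14 for Mrps18a, 0.03 for Mrps18b and -0.21 for Mrps18c.

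Levels differed widely between genes within the control cells. In the Luc poly(A) libraries the highest means of the large subunit, per transcript length, were 221 RPKM for Mrpl33, 185 RPKM for Mrpl30 and 172 RPKM for Mrpl20. Those of the small-subunit symbols were 153 RPKM for Mrps36, 113 RPKM for Mrps28 and 99.9 RPKM for Mrps6. Mrpl30 and Mrpl20 do not differ beyond their spread (SD 13.6 and 22, n = 3), nor do Mrps28 and Mrps6 (SD 30.7 and 7.49). Mrps25 was the lowest, at a mean of 3.70 RPKM over the 6 libraries. After Sfpq siRNA the mean of Mrps6 was 34.3 RPKM (SD 4.64), and Mrps28, at 136 RPKM (SD 23.5), did not pass the test.

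The rRNA-depleted pair, with 1 library per group and so no test, gave lower values for most of the genes. Of 78 log2 ratios of Sfpq to Luc, 64 were below 0 (82.1%), against 51.7% of 11386 genes compared, and the medians were -0.24 and -0.02. In the small subunit 27 of 29 were below 0 (median -0.29), and in the large subunit 37 of 49 (median -0.19). A fall of 1.5-fold or more was seen for 5 genes (6.41%), against 13.3% of all genes compared, and a rise of that size for 1 gene, Mrpl54 (1.28%), against 7.86%. The 3 lowest ratios at a mean of at least 5 RPKM were those of Mrps6, Mrps9 and Mrps36, and the 3 highest those of Mrpl54, Mrpl49 (0.33) and Mrpl48 (0.32). All 14 genes called in poly(A) RNA had the same sign in rRNA-depleted RNA, as did 60 of the 78. Because 64 of the 78 lay below 0 there, a shared sign tells little about the genes called lower. Across the 78 genes the 2 sets of values correlated with Pearson r = 0.86 and Spearman rho = 0.76 (0.76 and 0.74 without Mrps6 and Mrps9). This describes genes within a few libraries, and genes are not independent replicates.

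**Figure D4:**
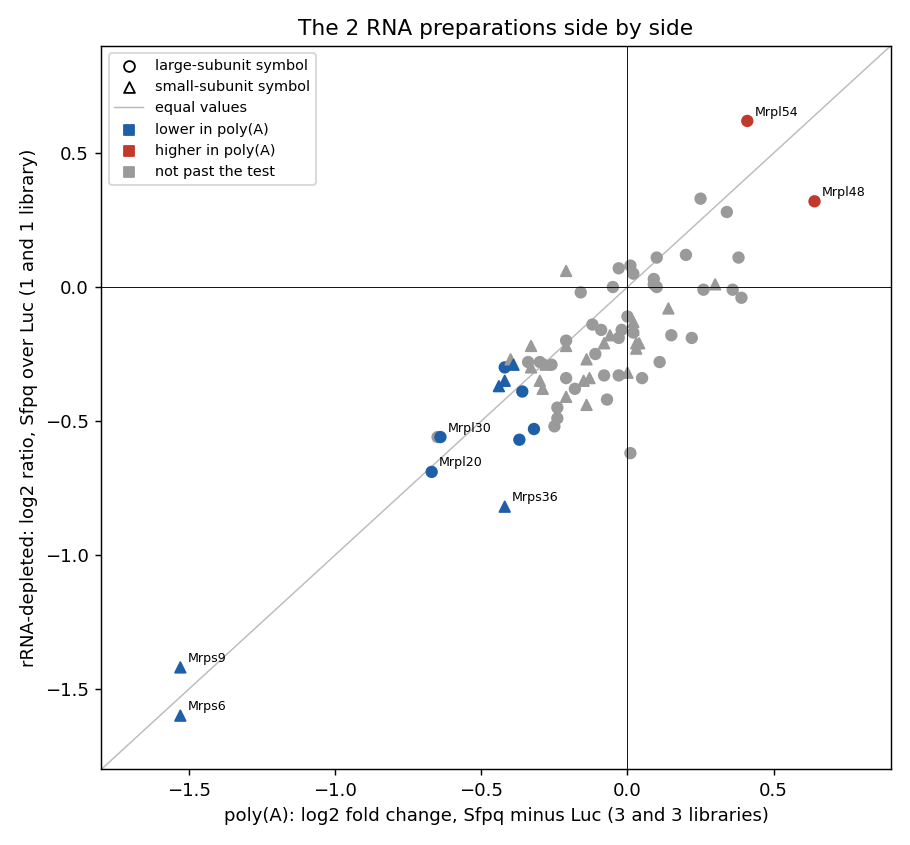
Log2 fold change in poly(A) RNA (horizontal) against the log2 ratio of Sfpq to Luc in rRNA-depleted RNA (vertical), 1 point per gene, circles for the large and triangles for the small subunit. Mrps6 and Mrps9 lie low on both axes and Mrpl54 and Mrpl48 high, while most uncalled genes lie below 0 on the vertical axis.

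Levels of nearly all of these genes differed between the preparations in control cells. In Luc cells the rRNA-depleted library was lower than the poly(A) mean for 97.4% of the 78 genes, against 81.0% of 11136 genes, with medians of -0.90 and -0.43 log2 units. The medians were -0.82 for the large and -0.97 for the small subunit. The largest gaps were those of Mrpl23, at 162 RPKM in poly(A) and 21.4 RPKM in rRNA-depleted RNA, and Mrps36, at 153 and 22.6 RPKM. Only Mrpl10 (25.5 and 38.1 RPKM) and Mrps12 (21.6 and 25.3 RPKM) were higher in rRNA-depleted RNA. With 1 rRNA-depleted library per group these gaps have no replicate check, and preparation, library batch and the scaling of RPKM within each library cannot be told apart.

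Of the 78 genes, 71 have 1 RefSeq transcript in the files and 7 have more. In a fit of all 16793 transcripts, of which 21.6% were higher and 19.3% lower, no gene had transcripts that differed in sign. The 3 transcripts of Mrps10 were all lower (log2 fold changes -0.42, -0.41 and -0.40), as were both of Mrps36, and both of Mrpl48 were higher at 0.64. The transcript that stood for Mrpl48 is a noncoding record, and its coding transcript gave the same value (limma adjusted p = 0.00389). For Mrpl15, the transcript used fell by 0.37 (SE 0.11), and the other 2 had log2 fold changes of -0.20 each (SE 0.16, limma adjusted p = 0.350 and 0.322). These values lie within their errors of each other, and the difference was not tested. These transcripts share exons, so their values are not independent.

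A number of these genes start beside a gene on the other strand. By the gene table, 27 have such a divergent neighbour with a start site within 1000 bases, and 25 of the neighbours were tested, of which 7 were higher (28%, against 21.3% of all genes tested) and 4 lower (16%, against 18.6%). Except at Mrps27, Mrpl30 and Mrpl48, the ribosomal gene of the pair did not pass the test. Mrps12 had a log2 fold change of 0.02, whereas its neighbour Sars2, the mitochondrial seryl-tRNA synthetase gene, rose by 0.68 (limma adjusted p = 0.00268). Mrps18b lay at 0.03 and Ppp1r10, a nuclear regulator of protein phosphatase, rose by 0.65 (limma adjusted p = 0.00144). Mrpl43 lay at 0.10 and Twnk, the mitochondrial DNA helicase gene, rose by 0.40 (limma adjusted p = 0.0161). Mrpl32 had a log2 fold change of -0.34 and did not pass, and Psma2, a proteasome subunit gene, fell by 0.68 (limma adjusted p = 0.0108). Mrpl41 lay at 0.02 and Pnpla7, a lysophospholipase gene, fell by 0.42 (limma adjusted p = 0.0155). Both genes of a pair fell only at Mrps27 and Ptcd2, a gene of mitochondrial RNA processing, at -0.39 and -0.32 (limma adjusted p = 0.0267 for Ptcd2). In opposite directions, both passed at Mrpl48 and Rab6a. At Mrpl30, which fell, Mitd1 had a log2 fold change of 0.43 that did not pass (limma adjusted p = 0.0614). The differences within pairs were not tested.

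**Figure D5:**
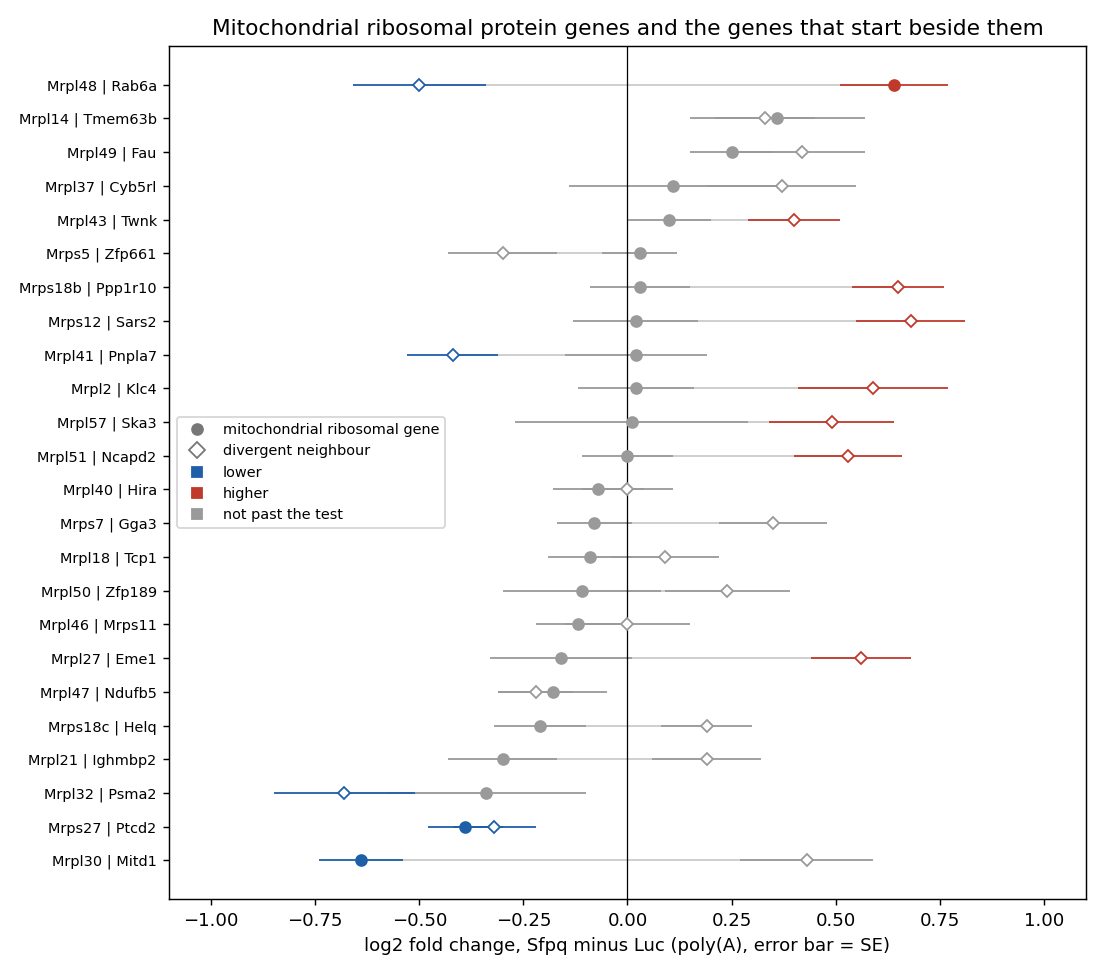
Log2 fold change in poly(A) RNA of each mitochondrial ribosomal protein gene (filled circle) and of the gene that starts beside it on the other strand (open diamond), with bars of 1 standard error, for the pairs in which both were tested (the pair Mrpl46 and Mrps11 is drawn once). Sars2 at 0.68 and Ppp1r10 at 0.65 lie to the right of Mrps12 and Mrps18b, and Rab6a at -0.50 lies opposite Mrpl48 at 0.64.

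By the gene table, another gene overlaps 25 of the 78. Whether the counting used strand is not given in the sources used here, so reads of overlapping genes cannot be told apart. Mrps23, which did not pass the test (log2 fold change -0.28, limma adjusted p = 0.10), overlaps Cuedc1, which fell by 1.20 (limma adjusted p = 0.000168). Mrpl24 did not pass either (-0.24, limma adjusted p = 0.183) and overlaps Rrnad1, which rose by 0.94 (limma adjusted p = 0.000362). Cuedc1 and Rrnad1 were at a lower level than the ribosomal gene. Their Luc means were 8.65 RPKM, against 33.3 RPKM for Mrps23, and 4.0 RPKM, against 62.6 RPKM for Mrpl24. Some overlapping genes were at a higher level than the ribosomal gene. Luc means were 223 RPKM for Tcp1 against 58.2 RPKM for Mrpl18. For Rab6a the Luc mean was 58.8 RPKM, against 39.2 RPKM for Mrpl48, which was called higher.

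Other genes that serve the same ribosome moved in both directions, and their counts are to be read against the 21.3% higher and 18.6% lower of all genes tested. Of 5 proteins of the mitochondrial ribosome with other symbols, Dap3, a GTP-binding protein of the small subunit, fell by 0.42 (limma adjusted p = 0.00774) and the other 4 did not pass. Of 26 genes for assembly and ribosomal RNA modification, 6 were higher (23.1%) and 3 lower (11.5%, median 0.00). The rRNA methyltransferase gene Mrm2 fell by 0.90, while the pseudouridine synthase gene Trub2 rose by 0.77 and Eral1, a chaperone of the small-subunit RNA, rose by 0.68. Of 16 translation factors and regulators 3 were higher (18.8%) and 5 lower (31.2%, median -0.15). They included the initiator formyltransferase gene Mtfmt, which fell by 0.79, the deformylase gene Pdf, which rose by 0.88, and Lrpprc, an mRNA stability factor, which fell by 0.52. Of 20 mitochondrial tRNA synthetases and related enzymes 2 were higher (10.0%) and 3 lower (15.0%, median 0.00). Fars2, for phenylalanine, fell by 1.40 on the log2 scale, and Sars2 rose by 0.68. Of 16 genes for mitochondrial DNA upkeep, transcription and RNA processing 3 were higher (18.8%) and 5 lower (31.2%, median -0.13). The genes of the tRNA-end nucleases Prorp (-1.18) and Elac2 (-1.02) were lower, and Polg2 (0.76) was higher. Among 10 biogenesis regulators tested, 2 were higher (20%) and 3 lower (30.0%, median 0.02). The largest change was that of the coactivator gene Ppargc1b, from a mean of 1.92 to 0.306 RPKM. Mycn (8.43 to 2.92 RPKM, log2 fold change -1.38) and Myc (56.7 to 39.4 RPKM, -0.52) were lower as well. Among the genes of factors whose motifs were searched above, Nrf1, for NRF-1, rose by 0.36 (limma adjusted p = 0.0274). Gabpb2, for a GABP subunit, rose by 0.61 (limma adjusted p = 0.00705). Gabpa (-0.01), Gabpb1 (0.05) and Yy1 (0.12) did not pass.

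The cytosolic ribosome and oxidative phosphorylation (the respiratory chain and ATP synthase) served for comparison. Of all genes tested, 21.3% were higher and 18.6% lower. Of 79 cytosolic ribosomal protein genes 4 were higher (5.06%) and 5 lower (6.33%, median 0.11), against 2 and 12 of the 78 mitochondrial ones. Here too single genes stood out, with Rpl9 at -1.58 and Rpl7 at -1.30. Of 81 nuclear genes for subunits of oxidative phosphorylation 5 were higher (6.17%) and 19 lower (23.5%, median -0.21). Ndufc1 of complex I was lowest at -2.81, and Cox4i2 was highest at 1.81. In rRNA-depleted RNA the medians were -0.03 for the cytosolic ribosomal protein genes and -0.25 for the oxidative phosphorylation genes. The median of the mitochondrial ribosomal protein genes there was -0.24. No difference between these lists was tested.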

How the data were processed

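Per the file headers, the authors deposited RPKM values by RefSeq transcript, in a separate file for each library. Reads came from an Ion Proton sequencer, per the labels' protocols, and were aligned with TopHat2 2.0.10 to mm9, per the submitters' processing notes. Not given in the sources used here were the RPKM program, its annotation, strand use and treatment of reads with several matches. Groups and replicates follow the sample titles; the description of Sfpq replicate 2 gives another number.

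Of 30978 transcripts per file, 30507 (98.5%) were named through a RefSeq gene table (GRCm38.p6), used for names and neighbours, since the build differs. The transcript with the highest mean over 8 libraries stood for each gene. Genes averaging 0.5 RPKM or more in the 6 poly(A) libraries were fitted with limma 3.58.1 (trended prior, R 4.3.3) on log2(RPKM + 0.5), with Benjamini-Hochberg adjustment over 11727 genes. The step was tested on simulated data. Gene tables, motifs and figures used Python 3.11.15 with pandas 2.3.3, numpy 2.4.6, scipy 1.17.1 and matplotlib 3.10.9. As RPKM holds no counts, standard errors and p-values come from the spread among replicates, which limma draws toward a trend over all genes fitted.

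The genes, the gene lists (190 of 192 symbols found) and the tests were chosen with earlier results of these data known. Named were the 8 largest falls and rises among called genes, the 3 most abundant per subunit, the S18 paralogs, called genes of the structural lists, the 3 extreme rRNA-depleted ratios in each direction and up to 3 called genes of each related list; other names were chosen after their values were seen. Alternatives were pseudocounts of 0.1 and 1, no filter or a minimum of 2 RPKM, median-ratio and quantile scaling, limma without trend, a replicate block, the mean of all transcripts and each library left out.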

Additional observations from a re-analysis of the deposited data

Results flagged for a closer look

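For 4 genes the sign of the change differed between the preparations, in that all Sfpq poly(A) libraries lay on 1 side of all Luc libraries while the rRNA-depleted pair lay on the other. The log2 values in poly(A) and rRNA-depleted RNA were 0.22 and -0.19 for Mrpl10, 0.26 and -0.01 for Mrpl19, 0.15 and -0.18 for Mrpl44, and -0.21 and 0.06 for Mrps35. None of the 4 passed the poly(A) test (limma adjusted p = 0.0817, 0.0837, 0.251 and 0.111), and the difference between preparations was not tested.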

How the results depend on the processing

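No change of sign occurred among the 14 called genes under the 15 alternatives of the poly(A) comparison, and 7 of the 14 stayed past the threshold in all of them. A further 20 genes passed under some alternative only, 11 of them only without Luc replicate 3, and 44 passed under none. When 1 library at a time was left out, 13.2% to 30.9% of all genes tested were higher and 14.3% to 22.5% lower. Of the mitochondrial ribosomal protein genes, 1 to 6 were higher and 6 to 24 lower. In the large subunit these were 1 to 5 and 2 to 13, in the small subunit 0 to 1 and 4 to 11, and the difference of the subunit medians (0.18) became 0.08 to 0.17. Without a filter on low values 7 genes were lower (8.97%, against 7.62% of all genes in that fit), 2 of them in the large subunit. With quantile normalization 4 genes were higher (5.13% against 22.5%), all in the large subunit, and the difference of medians was 0.09. For these changes the cause was not tested.

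With the replicate number as a block, 4 genes were higher (5.13%, against 22.9% of all genes in that fit), all in the large subunit. In that fit 14 genes were lower (17.9% against 19.7%), and all 14 calls of the main fit remained. Deviations of same-numbered libraries correlated at 0.327, -0.0350 and 0.157, and those of differently numbered libraries at -0.277 to 0.166. With 3 libraries a group these values cannot settle whether the numbers pair the libraries. The rRNA-depleted medians of these genes and of each subunit stayed below 0 under the alternatives run. With quantile normalization they were -0.16 for all, -0.08 for the large and -0.22 for the small subunit, and the median of all genes turned from -0.02 to 0.05. Depth in reads is unknown and no detection limit was set.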
